A study of Mus musculus with 6 samples.

Results

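A module of 42 genes was examined in the atria of old mice that lack, or carry, protein kinase C epsilon: secreted cytokines and chemokines, the adhesion molecules and enzymes that inflamed tissue induces, and the regulators that NF-kB and STAT3 switch on. The members were taken by symbol from a fixed list, out of 54838 gene identifiers in the deposited count table. The list leaves out Ccl2, a monocyte chemokine, because it had 0 counts in all libraries of this table, and its other genes were listed by name with no threshold on expression. They comprise 8 CXC and CX3C chemokines, 8 CC chemokines, 8 interleukins and interleukin-1 family genes, 4 other cytokines, 4 adhesion molecules, 3 induced enzymes and sensors and 7 regulators of NF-kB and STAT3 signalling.

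Chemokines are small secreted proteins that draw leukocytes along a gradient, with CXC chemokines such as Cxcl1 acting chiefly on neutrophils and CC chemokines chiefly on monocytes, eosinophils and lymphocytes. Interleukin-1, TNF and Toll-like receptor ligands release NF-kB from its inhibitors, and NF-kB then switches on chemokines, cytokines and also its own brakes. Cytokines of the interleukin-6 family, among them Il6, Lif and Osm, act through gp130 on STAT3, whose target Socs3 ends the signal. In the heart these genes are expressed by resident macrophages, fibroblasts, endothelial cells and, under stress, cardiomyocytes.

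The study profiled flash-frozen atria by RNA sequencing in 6 libraries, 3 biological replicates labelled KO and 3 labelled WT. The KO animals were of the Jackson Laboratory's PKC epsilon knockout stock (a whole-body deletion line) and the WT animals were C57BL/6J, at a mean age of 20.9 ± 0.43 months (the kind of error is not stated), with both sexes used. No treatment was given, so the groups differ in genotype and also in mouse stock, and these cannot be told apart. The labels contradict each other for 4 of the 6 libraries: the library name gives one genotype, and the title, the genotype field and the mouse line give the other. Libraries are therefore called KO or WT replicate 1 to 3 by their library name, and both readings were tested. By library name the groups are KO replicates 1, 2 and 3 against WT replicates 1, 2 and 3. By genotype field, KO replicate 1, WT replicate 2 and WT replicate 3 are KO (called field-KO below), and WT replicate 1, KO replicate 2 and KO replicate 3 are WT (field-WT). The readings are the same for replicate number 1 and opposite for numbers 2 and 3. The libraries of number 1 also carry the prefix Old in their names where the others carry a number.

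Prkce, the gene that the knockout targets, did not settle the labels. It stood at 9.20, 5.15 and 28.6 CPM (counts scaled by library size) in KO replicates 1, 2 and 3, against 36.2, 11.7 and 30.2 CPM in WT replicates 1, 2 and 3. KO replicate 1 and KO replicate 2 were the lowest libraries, WT replicate 2 lay next to them, and the remaining libraries lay well above. By library name KO replicate 3 and WT replicate 2 go against their label, and by genotype field KO replicate 2 and WT replicate 3 do. Neither reading separated the groups: the log2 fold change of KO over WT in edgeR's quasi-likelihood test was -0.85 by library name (SE 0.72, adjusted p = 1.00), while by genotype field it was -0.45 (SE 0.79, adjusted p = 0.957). Every genotype direction given below is thus a direction between labels.

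Totals ranged from 11574206 to 24138824 counts per library, 17.4% to 19.5% of them on the mitochondrial genome, and the members together took 0.0815% to 0.123%. Cardiomyocyte markers (Myl7, Myl4, Nppa, Myh6, Sln, Ttn) summed to 38560 to 47670 CPM, the most abundant of the marker lists. The summed level of 4 Y-linked genes was 78.9 to 146 CPM in 4 libraries, and 1.08 and 1.09 CPM in WT replicates 1 and 2, so by library name 3 KO libraries and 1 WT library carry the signal, while by genotype field 2 libraries of each group do. WT replicate 1 is field-WT and WT replicate 2 is field-KO, so within replicate numbers 1 and 2 the libraries with and without this signal lie on opposite sides. Of the 42 members 41 had counts and 39 passed the filter on low counts and were tested. Ccl6 was at 0 in all libraries, which allows up to 0.132 to 0.252 CPM, but its gene body lies wholly inside another gene, E230016K23Rik. Among genes like it, 1323 of the 1348 protein-coding genes that lie wholly inside others (98.1%) were at 0, against 19.6% of 19568 whose body is mostly free, so the 0 of Ccl6 is not read as absence. Il1a, which overlaps Gm14023 over most of its body, had 0, 0 and 0 counts in the field-KO libraries (KO replicate 1, WT replicate 2, WT replicate 3), against 7, 1 and 5 counts in the field-WT libraries (WT replicate 1, KO replicate 2, KO replicate 3). Il10 had 5, 4 and 1 counts in KO replicates 1, 2 and 3, against 12, 2 and 26 in WT replicates 1, 2 and 3. Both failed the filter on low counts of the main test. By genotype field, the edgeR fit with no such filter included them and called neither. DESeq2 fitted them too, but it gave no adjusted p even to Cxcl2, which had more counts over the libraries together. The lack of a call for Il1a and Il10 in DESeq2 is thus no judgement of them.

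Sequence was examined at the start of the genes, because several members share NF-kB as a regulator. Of the 30 members with a promoter in RefSeq (GRCm38.p6; 250 bases before to 50 after the start), 9 (30%) held the degenerate kappa-B consensus, the site that NF-kB dimers bind, on either strand, against 9.55% of 27025 genes with a promoter of the same length. A form that fixes only the central thymines and the flanking bases, tried as well, matched 10 of the 30 members (33.3%), against 5.48% of genes. The module was put together as NF-kB response genes, so this share describes the list and tests nothing. Besides the 4 shown here the members with a consensus match were Ccl9, Il6, Csf1, Lif and Nfkbia. The STAT letters TTCNNNGAA were found in 4 of 30 (13.3%, against 9.55% of all genes), among them Socs3 and Icam1. The C/EBP letters TTGCNNAA were found in 5 (16.7%, against 12.2%) and the AP-1 letters TGANTCA in 9 (30%, against 8.97%). A match of these letters is a description of the sequence and is no evidence of binding. The promoters of 4 of the members with a match are shown, chosen by the smallest p in either reading, with the consensus match in capitals and all read in the direction of the gene. They lie at chr5:90890995-90891294 (plus strand) for Cxcl1, chr5:90903649-90903948 (plus strand) for Cxcl2, chr10:19015361-19015660 (minus strand) for Tnfaip3 and chr7:19822706-19823005 (minus strand) for Bcl3.
Cxcl1: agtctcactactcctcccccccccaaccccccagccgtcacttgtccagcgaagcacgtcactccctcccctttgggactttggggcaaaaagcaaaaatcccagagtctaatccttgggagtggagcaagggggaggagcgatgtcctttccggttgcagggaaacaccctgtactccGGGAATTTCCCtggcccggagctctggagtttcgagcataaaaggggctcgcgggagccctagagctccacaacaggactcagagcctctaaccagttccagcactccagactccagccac
Cxcl2: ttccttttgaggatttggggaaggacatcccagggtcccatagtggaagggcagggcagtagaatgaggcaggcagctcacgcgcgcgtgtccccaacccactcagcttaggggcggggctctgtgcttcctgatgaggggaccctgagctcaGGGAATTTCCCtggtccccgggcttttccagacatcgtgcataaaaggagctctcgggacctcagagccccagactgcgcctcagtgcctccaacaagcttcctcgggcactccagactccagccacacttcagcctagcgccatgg
Tnfaip3: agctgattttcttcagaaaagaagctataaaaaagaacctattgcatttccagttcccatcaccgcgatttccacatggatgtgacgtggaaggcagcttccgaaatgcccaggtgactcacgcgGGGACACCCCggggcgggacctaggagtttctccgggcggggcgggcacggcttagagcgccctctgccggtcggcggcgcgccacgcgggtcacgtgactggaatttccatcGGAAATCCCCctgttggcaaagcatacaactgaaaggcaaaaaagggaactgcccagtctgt
Bcl3: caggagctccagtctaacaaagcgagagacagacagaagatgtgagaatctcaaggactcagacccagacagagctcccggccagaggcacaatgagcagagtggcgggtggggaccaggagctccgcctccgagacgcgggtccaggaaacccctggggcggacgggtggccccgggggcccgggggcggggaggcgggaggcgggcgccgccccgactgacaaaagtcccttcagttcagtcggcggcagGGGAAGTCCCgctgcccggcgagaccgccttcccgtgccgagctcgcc
Cxcl1 and Cxcl2, neighbours on chromosome 5, carry the same stretch of capitals, 71 bases before the start in Cxcl1 and 97 bases before it in Cxcl2. Tnfaip3 holds matches 125 and 12 bases before its start, and Bcl3 holds one just after it. None of these overlaps a match of the STAT, C/EBP or AP-1 letters.

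Levels between members were compared per kilobase of exon free of other genes. Nfkbia, which encodes the inhibitor that holds NF-kB in the cytoplasm, was the most abundant at 64.0 RPKM (counts per kilobase, scaled as CPM), ahead of Cxcl13, which draws B cells, at 52.6. Cxcl16 (22.0), Cebpb (21.8), Ccl8 (20.0), Cxcl1 (18.8) and Ccl7 (18.7 RPKM) formed a second tier of closely spaced levels. Among the interleukins Il33, an alarmin held in the nucleus of stromal cells, and Il1b stood at 9.44 and 9.36 RPKM. The interleukin-1 receptor antagonist Il1rn was the lowest tested member at 0.156 RPKM.

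The members differed widely in how much they moved from library to library. Of the 39 tested members 17 had a range over the 6 libraries (in log2 of CPM plus 0.5) wider than that of 95% of the 14708 genes tested. The widest were Has1, which makes hyaluronan, at 3.54, Cxcl2, which draws neutrophils, at 3.34, Lif at 3.20 and Osm at 2.65. The highest library was 14.2 times the lowest for Has1, 17.8 times for Cxcl2, 16.7 times for Lif and 15.1 times for Osm. A narrower range than that of the median gene was seen for 7 members, among them Il15 (0.37), Csf1, the macrophage growth factor (0.44), Cxcl13 (0.44) and the adhesion molecule Vcam1 (0.52).

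**Figure D1:**
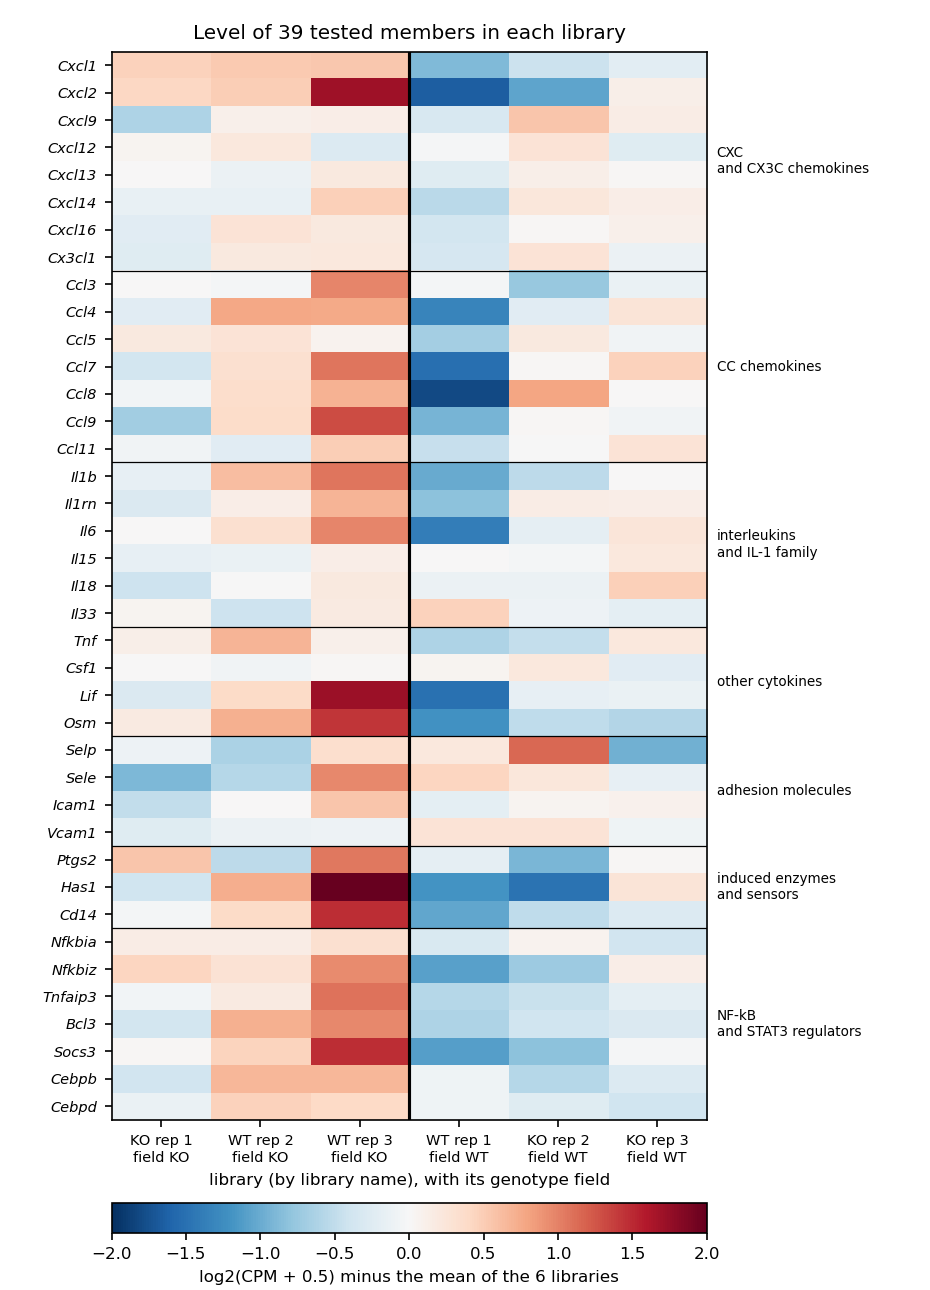
Level of the 39 tested members (rows, by role) in each of the 6 libraries (columns, the 3 field-KO libraries left of the 3 field-WT libraries), as log2(CPM + 0.5) minus the mean of the 6. WT replicate 3 holds the highest value for 23 members and WT replicate 1 the lowest for 23.

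A pair of libraries set most of these extremes, and they are both WT by library name. WT replicate 3 was the highest library for 23 of 39 members, against 11.6% of all tested genes, and WT replicate 1 the lowest for 23 of 39, against 25.1%. Relative to its own mean over libraries (log2), the median member stood 0.02 to 0.11 below in the KO replicates, while it stood 0.54 below in WT replicate 1, 0.27 above in WT replicate 2 and 0.66 above in WT replicate 3. The induced enzymes and sensors were spread most, with a median of 1.48 above the mean in WT replicate 3 and 1.03 below it in WT replicate 1. Adhesion molecules did not share this order, and WT replicate 1 was above the mean for them (median 0.25). By genotype field, WT replicates 2 and 3 are KO and WT replicate 1 is WT, which puts the high libraries on the KO side and the low one on the WT side. By library name they all fall in the WT group.

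**Figure D2:**
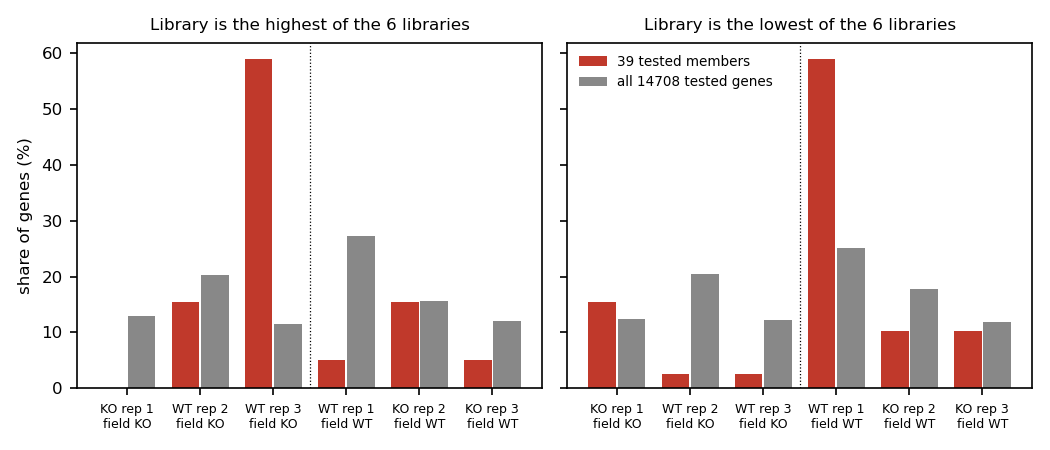
Share of genes (%) for which each library is the highest (left) or the lowest (right) of the 6, for the 39 tested members and for all 14708 tested genes, with field-KO libraries left of field-WT libraries. The members' bars stand far above the bars of all genes in WT replicate 3 (highest, 23 members) and WT replicate 1 (lowest, 23 members).

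Some cell type markers differed between the same libraries. Macrophage markers, 10 of 10 detected, summed to 645, 791 and 753 CPM in field-KO libraries of replicate numbers 1, 2 and 3, against 551, 709 and 611 CPM in field-WT libraries of the same numbers. Monocyte and neutrophil markers, 8 of 8 detected, summed to 50.1, 54.3 and 86.2 CPM in field-KO libraries, against 32.1, 64.5 and 68.2 CPM in field-WT libraries. By genotype field 8 of 10 macrophage markers were higher in KO, with a median log2 fold change of 0.15, against 48.1% of all tested genes higher. Without WT replicate 3, 6 were higher and 4 lower (median 0.07). Without the 2 libraries at odds with their Prkce level, 6 were higher and 4 lower (median 0.14). The part of macrophage markers in the members' pattern was not tested. In bulk tissue, fewer cells of a type and less RNA per cell cannot be told apart. Fibroblast markers (1403 to 2039 CPM, with Tcf21 at 0 in all libraries), endothelial markers (1089 to 1370 CPM) and markers of B, T and NK cells (9.73 to 16.9 CPM, with Ms4a1 at 0 in all libraries) did not follow that order. Platelet markers summed to 44.0, 42.1 and 53.6 CPM in KO replicates 1, 2 and 3, against 47.0, 61.5 and 55.5 CPM in WT replicates 1, 2 and 3, and 5 of 5 were lower by library name (median log2 fold change -0.98, and -0.31 without WT replicate 1). Mesothelial markers summed to 131, 161 and 178 CPM in KO replicates 1, 2 and 3, against 167, 190.5 and 210 CPM in WT replicates 1, 2 and 3. By library name 4 of 5 mesothelial markers were lower (median -0.28). Adipocyte markers summed to 20.1, 109 and 48.7 CPM in field-KO libraries of replicate numbers 1, 2 and 3, against 16.7, 127 and 55.3 CPM in field-WT libraries of the same numbers, and 4 of 5 were lower by genotype field (median -0.77, but 0.17 without the 2 libraries at odds with their Prkce level). In edgeR with all libraries 1 fibroblast marker passed an adjusted p of 0.05 by genotype field with the block, higher in KO. Of the 4 fibroblast markers tested, 2 were higher and 2 lower in that fit. No other marker of these lists passed with the block, and none passed without it. The part of these markers in the members' pattern was not tested. Immediate early genes ran from 859 to 1463 CPM. The lowest immediate early sum was in KO replicate 2 and the highest in KO replicate 3.

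By library name, no member and no gene passed an adjusted p of 0.05 (edgeR, 0% of 14708 genes; 219 genes or 1.49% at an unadjusted p under 0.05). Among members 11 of 39 were higher and 28 lower in KO, with a median log2 fold change of -0.24, against -0.02 over all tested genes, of which 45.5% were higher. An unadjusted p under 0.05 was reached by 3 members, all lower in KO: Cebpb and Cebpd, C/EBP transcription factors that act with NF-kB and STAT3 on acute phase genes, and Bcl3, a nuclear partner of NF-kB. Cebpb had 9.26, 8.12 and 9.99 CPM in KO replicates 1, 2 and 3, against 11.5, 19.6 and 19.6 CPM in WT replicates 1, 2 and 3 (log2 fold change -0.89, SE 0.24, adjusted p = 1.00). Cebpd had 10.1, 9.28 and 8.27 CPM in the KO replicates, against 10.5, 15.6 and 14.9 CPM in the WT replicates (-0.57, SE 0.22, adjusted p = 1.00). In both genes every KO library lay below every WT library, and the gap in replicate number 1, where the labels agree, was the smallest. These were the 2 members of 39 with every KO library below every WT library, against 2.62% of all tested genes, and no member had every KO library above, against 3.33%. Only 39.6% of the body of Cebpb and 51.7% of that of Cebpd is free of overlapping genes (Tmem189 and Spidr). Leaving out WT replicate 3 turned the median of the members to 0.02, with 20 higher and 19 lower, and leaving out WT replicate 1 gave -0.59, with 7 higher and 32 lower.

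By genotype field, the module leaned the other way: 30 of 39 members were higher and 9 lower in KO, with a median log2 fold change of 0.56, against -0.01 over all tested genes, of which 48.1% were higher. No member passed the threshold when replicate numbers were ignored (2 genes of 14708 did, 0.0136%), and 14 members reached an unadjusted p under 0.05, 13 of them higher, against 5.69% of all genes. With the replicate number as a block, which compares each library with its same-numbered partner, 9 members rose and none fell, against 0.326% of all tested genes that rose and 0.0204% that fell. These calls rest on the pairing by number, and in the third pair it was weak: KO replicate 3 deviated together with WT replicate 2 (r = 0.151 over genes) more than with its partner WT replicate 3 (r = 0.118). The 9 were Cxcl1, Cxcl2, Il1b, Osm, Ptgs2, Has1, Cd14, Nfkbiz and Socs3. In every one of them the field-KO library was the higher in all 3 pairs, as it was in 20 of the 39 members, against 16.9% of all tested genes. Of the 39, 8 had every field-KO library above every field-WT library, against 7.48% of all genes, and 1, Vcam1, had every one below, against 4.49%. Without the 2 libraries at odds with their Prkce level, no member passed by genotype field, although 30 were higher and 9 lower (median 0.35); that fit had 4 libraries and 3 genes called (0.02% of 14976). The median was 0.32 without WT replicate 3 and 0.34 without WT replicate 1, each with 27 higher and 12 lower.

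**Figure D3:**
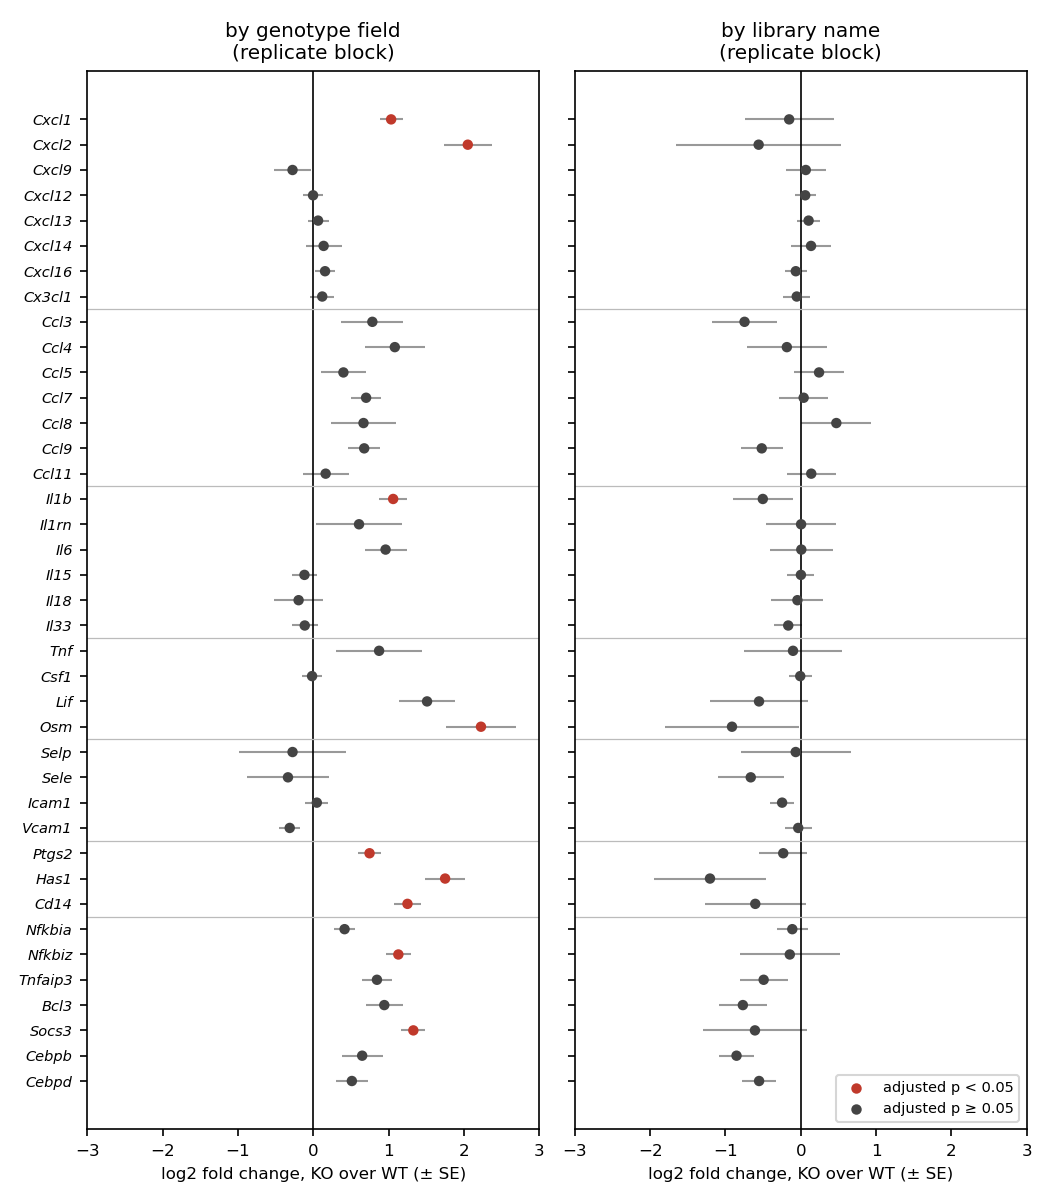
Log2 fold change of KO over WT with its standard error for the 39 tested members, by genotype field (left) and by library name (right), both from edgeR with the replicate number as a block. Red points passed an adjusted p of 0.05: 9 members on the left, all higher in KO, and none on the right.

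Among CXC chemokines, Cxcl1 and Cxcl2 rose by genotype field with the block, and the other 6 did not pass the threshold. Cxcl1 had 45.7, 47.6 and 48.2 CPM in the field-KO libraries of replicate numbers 1, 2 and 3, against 17.6, 24.2 and 28.4 CPM in the field-WT libraries of the same numbers. The field-KO values were nearly equal and none overlapped the field-WT values, and the log2 fold change was 1.03 (SE 0.15, adjusted p = 0.00291; 1.01, SE 0.18, adjusted p = 0.398 without the block). Cxcl2 had 4.09, 4.38 and 10.7 CPM in field-KO libraries, against 0.600, 1.16 and 3.23 CPM in field-WT libraries (2.05, SE 0.32, adjusted p = 0.00475; 0.786 without the block). The highest library of Cxcl2 was WT replicate 3 and the lowest WT replicate 1. The abundant chemokines of this class varied little: Cxcl13, a homeostatic B-cell attractant, had 60.5, 55.5 and 69.3 CPM in field-KO libraries, against 50.9, 65.6 and 61.4 CPM in field-WT libraries. Cxcl16, the ligand of Cxcr6, had 45.5, 64.8 and 61.5 CPM in field-KO libraries, against 41.4, 54.7 and 57.8 CPM in field-WT libraries. In both genes the groups overlapped, with log2 fold changes of 0.06 and 0.16. Cxcl12, which retains haematopoietic cells through Cxcr4, had a log2 fold change of -0.00488 (SE 0.18) without the block. Cxcl9, Cxcl14 and Cx3cl1 had log2 fold changes of -0.28, 0.13 and 0.11, also without the block.

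All 7 tested CC chemokines were higher by genotype field, with a median of 0.62, but none passed the threshold with or without the block. The median was 0.19 without WT replicate 3, with 6 higher and 1 lower, and 0.21 without WT replicate 1, with 5 higher and 2 lower. Ccl7, a monocyte attractant, had 10.1, 16.4 and 28.0 CPM in field-KO libraries, against 4.26, 13.2 and 18.2 CPM in field-WT libraries (0.70, SE 0.20, adjusted p = 0.181 with the block). Ccl8 had 8.52, 11.4 and 14.7 CPM in field-KO libraries, against 2.16, 15.6 and 8.91 CPM in field-WT libraries. Ccl3, made by activated macrophages, had 1.93, 1.85 and 4.25 CPM in field-KO libraries, against 1.86, 0.943 and 1.71 CPM in field-WT libraries. In Ccl7, Ccl8 and Ccl3 the groups overlapped, and WT replicate 1 was the lowest library in the first 2. Ccl9, another monocyte attractant, had its highest level, 74.0 CPM, in WT replicate 3 (field-KO) and its lowest, 15.4 CPM, in WT replicate 1 (field-WT), and Ccl4, Ccl5 and Ccl11 had log2 fold changes of 0.96, 0.36 and 0.17.

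Of the interleukins, Il1b rose by genotype field with the block and the rest did not pass. Il1b, the secreted pyrogen of activated macrophages, had 10.3, 17.9 and 24.7 CPM in field-KO libraries, against 5.52, 7.90 and 11.6 CPM in field-WT libraries (1.06, SE 0.19, adjusted p = 0.0195; 0.786 without the block). The groups overlapped in that KO replicate 3 exceeded KO replicate 1. The body of Il1b is 81.1% free of Il1bos, a gene of the opposite strand, and the library kit does not mark strand. Il33 had 27.8, 19.9 and 30.4 CPM in field-KO libraries, against 37.0, 24.9 and 23.4 CPM in field-WT libraries, which overlap (-0.11, SE 0.17 with the block). Il6 was higher in field-KO libraries in all 3 pairs (0.96, SE 0.28, adjusted p = 0.190 with the block) and had its lowest level in WT replicate 1. Il1rn, Il15 and Il18 had log2 fold changes of 0.56, -0.11 and -0.20 without the block.

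Osm, an interleukin-6 family cytokine made by neutrophils and macrophages, had 1.59, 2.53 and 4.52 CPM in field-KO libraries, against 0.300, 0.798 and 0.734 CPM in field-WT libraries. The groups did not overlap and the log2 fold change was 2.23 (SE 0.46, adjusted p = 0.0447; 0.606 without the block), on few reads: the lowest library held 5 counts, with an exact Poisson interval of 0.0974 to 0.700 CPM, and the highest 103. Lif, its close relative, had 1.87, 3.28 and 9.03 CPM in field-KO libraries, against 0.540, 2.103 and 2.15 CPM in field-WT libraries (1.51, SE 0.37, adjusted p = 0.0891 with the block). KO replicate 1 lay below KO replicates 2 and 3, so the groups overlapped. Csf1 had 67.6, 64.0 and 68.2 CPM in field-KO libraries, against 69.2, 77.5 and 57.0 CPM in field-WT libraries, which overlap. Tnf averaged 1.27 ± 0.43 CPM in field-KO libraries and 0.684 ± 0.38 CPM in field-WT libraries (SD, n = 3 each).

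Adhesion molecules, which let leukocytes stick to endothelium, had 1 of 4 members higher by genotype field and none past the threshold. Vcam1, the ligand of the integrin VLA-4, had 90.1, 97.9 and 99.4 CPM in field-KO libraries, against 129, 129 and 101 CPM in field-WT libraries. All field-KO libraries were lower, though by little in replicate number 3 (-0.31, SE 0.14, adjusted p = 0.494 with the block). Icam1 had 32.5, 46.3 and 68.1 CPM in field-KO libraries, against 40.1, 48.0 and 48.8 CPM in field-WT libraries, which overlap. Selp and Sele, the selectins, had 0.441 to 3.55 CPM and 2.39 to 9.99 CPM over all 6 libraries.

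All 3 induced enzymes and sensors rose by genotype field with the block. Ptgs2, the inducible cyclooxygenase, had 43.2, 20.1 and 60.8 CPM in field-KO libraries, against 25.5, 15.3 and 29.5 CPM in field-WT libraries (0.75, SE 0.16, adjusted p = 0.0447; 0.904 without the block). Its groups overlapped, and both libraries of replicate number 2 were low. Has1 had 4.997, 11.4 and 29.8 CPM in field-KO libraries, against 2.64, 2.103 and 8.13 CPM in field-WT libraries (1.75, SE 0.26, adjusted p = 0.00475; 0.870 without the block), with KO replicate 3 above KO replicate 1. Cd14, the co-receptor that hands lipopolysaccharide to Tlr4, had 22.5, 30.3 and 65.6 CPM in field-KO libraries, against 11.1, 16.1 and 19.2 CPM in field-WT libraries. Its groups did not overlap (1.25, SE 0.18, adjusted p = 0.00291; 0.786 without the block).

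**Figure D4:**
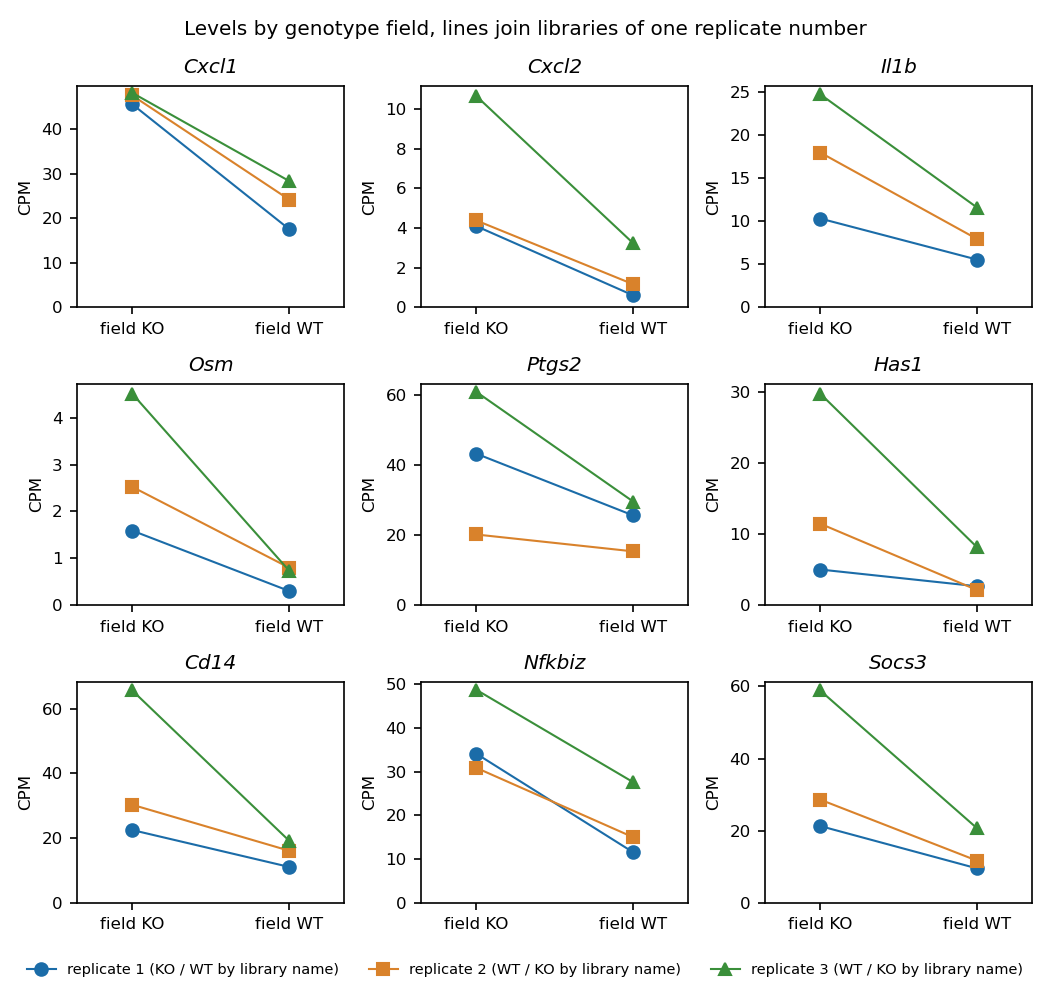
CPM of the 9 members that passed the threshold by genotype field with the replicate block, in field-KO (left of each panel) and field-WT libraries, with lines joining the libraries of one replicate number. All lines run down from field-KO to field-WT, and replicate number 3 is the highest in the field-KO group for each gene.

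Of the 7 regulators, Socs3 and Nfkbiz rose by genotype field with the block. All 7 had a positive fold change in that reading, each with an unadjusted p under 0.05, and a negative one by library name. Without WT replicate 3, by genotype field an unadjusted p under 0.05 was reached by 2 of the 7 (median 0.54, against 0.92 with it) and 2 of the 7 were positive by library name. Without the 2 libraries at odds with their Prkce level, all 7 were positive by genotype field and 1 had such a p, and 1 was positive by library name. Socs3, the feedback inhibitor of STAT3 signalling, had 21.3, 28.6 and 58.9 CPM in field-KO libraries, against 9.54, 11.7 and 20.7 CPM in field-WT libraries. Its groups did not overlap, and its log2 fold change of 1.33 (SE 0.16) had the smallest adjusted p of the members with the block (0.00027; 0.786 without it). Nfkbiz, an inducible nuclear partner of NF-kB, had 34.1, 30.9 and 48.7 CPM in field-KO libraries, against 11.6, 15.0 and 27.6 CPM in field-WT libraries (1.13, SE 0.17, adjusted p = 0.00291; 0.780 without the block). Tnfaip3 (A20), the ubiquitin-editing brake on NF-kB, had 14.4, 16.9 and 32.3 CPM in field-KO libraries, against 9.90, 10.9 and 12.9 CPM in field-WT libraries, without overlap (0.85, SE 0.19, adjusted p = 0.0724 with the block). Nfkbia had 112, 113 and 127 CPM in field-KO libraries, against 82.0, 107 and 77.3 CPM in field-WT libraries, also without overlap (0.42, SE 0.14, adjusted p = 0.300 with the block). Bcl3 had 5.51, 12.3 and 14.6 CPM in field-KO libraries, against 4.56, 5.44 and 5.87 CPM in field-WT libraries, where KO replicate 1 falls among the field-WT values (0.94, SE 0.25, adjusted p = 0.122 with the block). Cebpb and Cebpd were higher in the field-KO library in replicate numbers 2 and 3 and lower in number 1, so their sign followed the library name in every pair.

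The calls held best for a few genes. Cd14, Cxcl1, Nfkbiz and Socs3 were called with edgeR, DESeq2 and limma-voom when each used the block. They were also called in edgeR with any one replicate number left out. Apart from edgeR with the block on all libraries, these fits were chosen after seeing the data. All these fits reuse the same libraries, so they are no independent support. DESeq2 with the block called 7 members and 0.313% of all genes higher, and limma-voom 7 members and 0.19%. With replicate number 1, 2 or 3 left out, edgeR called 10, 8 and 5 members higher, against 0.295%, 0.28% and 0.41% of all genes. Cxcl2 was called with any number left out, and Has1 and Il1b by all 3 tools. DESeq2 with the block gave Cxcl2 no adjusted p (log2 fold change 2.07, SE 0.43), so Cxcl2 was not judged there. Cxcl9, which had more counts than Osm in every library, was given none either, so Osm was not judged there. The DESeq2 shares count genes without an adjusted p among all genes. Without the block DESeq2 called Cxcl1, Socs3 and Cd14, against 0.0803% of all genes. Cxcl2 had no adjusted p in that fit either (log2 fold change 1.91, SE 0.53). Neither Cxcl2 nor Osm, which had fewer counts than Cxcl2 in every library, was judged there. A fit with no filter on low counts called Cxcl1 and Osm (0.106% of genes), and one with the library series as a covariate called Cxcl1 (0.0476%). Single libraries moved the fold changes without the block: without WT replicate 3 the log2 fold change by genotype field was 0.90 for Has1 (1.83 with all libraries), 0.77 for Cd14 (1.36), 0.83 for Socs3 (1.38), 0.43 for Ptgs2 (0.82) and 1.31 for Cxcl2 (1.91). Without KO replicate 3 it was 2.88 for Cxcl2. All 9 stayed positive with any single library left out. In the mirror case, the library-name reading without replicate number 1 has the same libraries as the genotype-field reading with signs turned. In it 10 members were called lower, against 0.295% of all genes. The fit without number 1 thus cannot tell the readings apart.

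Receptors, signalling genes and further targets were read from the same fits. Of 15 chemokine receptors 12 were tested, 5 of them higher and 7 lower by genotype field (9 and 3 without the 2 libraries at odds with their Prkce level), and 7 higher and 5 lower by library name. Cxcr3, the receptor of Cxcl9 on T cells, averaged 1.56 CPM in KO and 0.642 CPM in WT by library name (1.25, SE 0.48, adjusted p = 1.00). Of 18 cytokine receptors 17 were tested, 8 higher and 9 lower by genotype field, and Il18r1 averaged 5.89 CPM in field-KO libraries and 3.49 CPM in field-WT libraries (0.76, SE 0.32, adjusted p = 0.868). Of 34 genes of NF-kB and STAT3 signalling 32 were tested, 20 higher and 12 lower by genotype field and 8 higher and 24 lower by library name, with medians of 0.05 and -0.06. By genotype field the direction of this list turned to 15 higher and 17 lower without WT replicate 3 (median -0.02) and to 14 higher and 18 lower without the 2 libraries at odds (median -0.06). Rela, the activating NF-kB subunit, averaged 50.7 CPM in KO and 59.3 CPM in WT by library name (-0.23, SE 0.14), and Nfkbib, an inhibitor, 17.1 CPM in field-KO and 12.6 CPM in field-WT libraries (0.44, SE 0.16). None of these lists had a call. Among 20 further targets of NF-kB and STAT3 that are not members, 14 were tested, and 13 were higher by genotype field (median 0.56), 7 of them with an unadjusted p under 0.05. Without WT replicate 3 their median was 0.30, with 12 higher and 2 with such a p, and without the 2 libraries at odds it was 0.27. Junb, an AP-1 subunit, averaged 44.4 ± 7.0 CPM in field-KO libraries and 22.5 ± 5.0 CPM in field-WT libraries (SD, n = 3 each; 0.98, SE 0.16, adjusted p = 0.0111 with the block, 0.536 without), and Gadd45b, a stress-response gene, 15.3 CPM in field-KO and 8.68 CPM in field-WT libraries (log2 fold change 0.83, SE 0.20, adjusted p = 0.0787 with the block). By library name 2 of the 14 were higher and 12 lower, and Bcl6, a transcriptional repressor, averaged 12.9 CPM in KO and 18.4 CPM in WT (-0.52, SE 0.19, adjusted p = 1.00).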

How the data were processed

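RNA was measured in the atria of 6 mice. Per the labels' protocols, 1 library per sample was made with an unstranded kit; per the submitters' processing notes, the build was GRCm38 and the tools included HISAT2 2.1.0 for alignment and featureCounts 1.5.0-p3. No source used here gives the annotation release or the strand setting. The authors deposited raw counts per Ensembl gene. Symbols, positions and overlaps were taken from GENCODE M21, which named 54809 of 54838 identifiers; 0 columns of other samples were present. Overlapping genes may have lost reads in the authors' counting.

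Counts were tested with edgeR 4.0.16 in R 4.3.3: TMM normalisation, filterByExpr, robust quasi-likelihood F test, two-sided, Benjamini-Hochberg over 14708 genes, adjusted p under 0.05. CPM used TMM library sizes and log2 values per library a pseudocount of 0.5; Poisson intervals are at 95% and, like the floor of 3 counts, cover counting error only. DESeq2 1.42.0 and limma 3.58.1 were alternatives. The test without the block was checked on simulated counts that held no pair effect, so the check does not cover the fit with the block. Of 100 genes given a log2 change of 1, it called 51 by library name and 46 by genotype field. Of 100 given a log2 change of 2, it called 88 and 86, with 8 and 9 false calls in all. Every pair of libraries differed by far more than counting noise (chi-square divided by its degrees of freedom 18.8 to 61.9).

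Same-numbered libraries deviated together (r = 0.160, 0.172 and 0.125 over genes by library name, and 0.306, 0.258 and 0.118 by genotype field). Different numbers gave -0.169 to -0.011 and -0.345 to 0.151 in the same readings. Deviations from a group mean cancel within the group, so positive same-number values push the different-number values to be negative on average. The contrast is thus partly fixed in advance and is no test of the pairing. The numbers were taken to pair the libraries, a pairing that comes from the numbers in the titles and from these data. The labels name no shared litter or day. Replicates are stated to be biological.

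Members and lists were chosen with earlier results of these data known. Values are given for the 5 members with the smallest p in each reading, the 2 most abundant per role, the 4 of widest range and every called member, and of each pathway list for genes among the 3 of smallest p per reading. Promoters came from RefSeq (GRCm38.p6); the kappa-B consensus was chosen after the central-thymine form had been run, and both are given.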

Additional observations from a re-analysis of the deposited data

How the results depend on the processing

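No member was called by library name under any alternative except with the replicate block and without replicate number 1, where 10 were. Over all genes, the library-name count of 0 became 1 with no low-count filter, 6 without the 2 libraries at odds with their Prkce level, 0 to 4 with single libraries left out, and 50, 28 and 4 with the replicate block and number 1, 2 or 3 left out. By genotype field the count of 0 members became 3 with DESeq2, 2 with no filter, 1 with the library series as a covariate, 9 with the replicate block, 7 with DESeq2 and 7 with limma-voom under the block, and 10, 8 and 5 with the block and number 1, 2 or 3 left out. The count of 2 genes over all became 19, 25, 7, 51, 80 and 32 under the same alternatives in the same order, 1 with limma-voom without the block, 0 to 2 with single libraries left out, and 50, 48 and 83 with the block and number 1, 2 or 3 left out. The block changed no call by library name. The fits with DESeq2 or limma-voom and the block, and those with the block and a number left out, were chosen after seeing the data.

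The fold changes of 24 named members in 2 readings gave 48 results, each under 19 alternatives (912 comparisons): 790 kept direction and side of the threshold, 62 newly passed it and 60 changed sign, and 29 results never changed sign. By library name the sign changed without the 2 libraries at odds for Cxcl1 (0.0793) and Nfkbia (0.068). Ccl7 turned with limma-voom (0.0602), the block (0.0389), the library series (0.0123) and DESeq2 with the block (0.0719), and Csf1 with limma-voom (-0.00818), the block (-0.00661) and limma-voom with the block (-0.00972). With the block and without number 1, Ccl8 was -0.148 and Vcam1 0.213. Without number 2, Cxcl1 was 0.289, Nfkbiz 0.332, Cxcl16 0.0244, Ccl7 0.222, Csf1 -0.146 and Cxcl2 0.121. Without number 3, Cxcl1 was 0.21, Osm 0.215, Nfkbiz 0.273, Ccl7 0.443, Cd14 0.0585, Ptgs2 0.206, Nfkbia 0.198, Cxcl2 0.36 and Lif 0.469. With single libraries left out the values spanned -0.549 to 0.0168 for Cxcl1, -0.639 to 0.283 for Nfkbiz, -0.26 to 0.041 for Cxcl16, -0.261 to 0.716 for Ccl8, -0.69 to 0.438 for Ccl7, -0.401 to 0.00286 for Il33, -0.107 to 0.112 for Csf1, -0.186 to 0.113 for Vcam1, -0.656 to 0.364 for Ptgs2, -0.277 to 0.0335 for Nfkbia, -1.41 to 0.233 for Cxcl2 and -1.61 to 0.134 for Lif.

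By genotype field the sign changed without the 2 libraries at odds for Csf1 (0.0506) and Icam1 (-0.189). With the block it changed without number 1 for Cxcl13 (-0.0339) and Il33 (0.0385), without number 2 for Csf1 (0.111) and without number 3 for Cxcl13 (-0.00278) and Icam1 (-0.189). With single libraries left out the values spanned -0.0453 to 0.139 for Cxcl13, -0.0789 to 1.05 for Ccl8, -0.247 to 0.108 for Il33, -0.138 to 0.0779 for Csf1 and -0.216 to 0.328 for Icam1. The cause of these changes was not tested. Members under about 5 CPM, among them Osm, Cxcl2 and Lif, rest on few reads in some libraries. Their lowest counts were 5, 10 and 9, all in WT replicate 1, which was not the shallowest library.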
